A study of Caenorhabditis elegans with 2 samples.

Results

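The genes meg-3 and meg-4 of Caenorhabditis elegans were examined for binding of DUXL-1, a homeodomain transcription factor, by chromatin immunoprecipitation and sequencing (ChIP-seq). They are 2 of 19973 nuclear protein-coding genes and 2 of the 2731 on the X chromosome, and were chosen by the measured signal of the peaks beside them, so their signals and ranks are a description and carry no test. All samples form 1 group: whole hermaphrodite L4 larvae of strain OP470, with the allele unc-119(tm4063) on chromosome III and the transgene insertion wgIs470, which expresses DUXL-1 with GFP-FLAG at its C terminus. The immunoprecipitation used an antibody against GFP on 2 biological replicates. No group without the tag is set beside it here, and the cells that make the tagged protein are not separated in whole larvae. The lists hold no read counts, so the depth behind each value is unknown.

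Germ granules are condensates of RNA and protein in germ cells and their precursors. In C. elegans they are called P granules and are partitioned to the germ lineage during the first embryonic divisions. MEG-3 and MEG-4 are intrinsically disordered proteins that act redundantly: they coat and stabilise P granules in the early embryo, and MEG-3 gathers maternal mRNAs such as nos-2 into them. MBK-2 kinase and PPTR-1, a phosphatase subunit, regulate this assembly.

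The meg-3 gene (WBGene00001569) lies at chrX:1986469-1989607 on the minus strand of ce11 (WBcel235), and meg-4 (WBGene00016485) at chrX:1682954-1686419 on the plus strand, and the summits of their peaks are 307 kb apart. Each has 1 annotated transcript with 7 coding exons, and each annotated start lies 2 bases before the start codon. Their coding sequences, of 2586 and 2496 bases, were identical at 85.7% of 2462 aligned pairs of bases, so they are close copies of each other.

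Each gene had 1 peak in the thresholded list within 5 kb, and that peak lay just upstream of its start, outside every annotated gene. The authors' thresholded list was thresholded on the irreproducible discovery rate, per the file headers, and holds the 1980 pooled candidates of highest signal; 386 of its 405 X peaks overlapped a candidate in both replicates. The bases under these peaks are shown first, because the peaks of both genes rest on related sequence. The first run is the part of the meg-3 peak nearest the gene, 318 to 27 bp upstream of its start (chrX:1989634-1989925, minus strand, 292 bases), and the second is the whole meg-4 peak, 321 to 34 bp upstream (chrX:1682633-1682920, plus strand, 288 bases), both 5′ to 3′ towards the gene. Capitals mark bases that belong to runs of 10 or more aligned bases identical in both, some of them cut by the end of the window.
meg-3: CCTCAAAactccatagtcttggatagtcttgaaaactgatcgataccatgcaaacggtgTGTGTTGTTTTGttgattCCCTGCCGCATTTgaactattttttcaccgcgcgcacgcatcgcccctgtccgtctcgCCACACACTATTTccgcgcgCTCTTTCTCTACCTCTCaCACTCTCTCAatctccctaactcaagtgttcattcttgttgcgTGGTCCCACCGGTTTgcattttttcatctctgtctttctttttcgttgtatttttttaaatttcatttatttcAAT
meg-4: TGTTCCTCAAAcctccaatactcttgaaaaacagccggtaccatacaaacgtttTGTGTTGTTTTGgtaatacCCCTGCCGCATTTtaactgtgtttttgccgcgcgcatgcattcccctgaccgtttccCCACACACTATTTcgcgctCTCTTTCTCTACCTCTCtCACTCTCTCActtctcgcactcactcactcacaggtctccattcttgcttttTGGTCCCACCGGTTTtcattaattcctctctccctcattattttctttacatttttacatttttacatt
Capitals make up 30.8% of the meg-3 run and 31.6% of the meg-4 run. The shared run TGGTCCCACCGGTTT, at the same 102 to 88 bp upstream of both starts, occurred 2 times in the genome on either strand, at these genes alone. The shared run CTCTTTCTCTACCTCTC occurred 3 times, and CCCTGCCGCATTT 5 times.

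The meg-3 peak (chrX:1989634-1989960, 327 bp wide) had a signal of 604 in replicate 1 and 516 in replicate 2, which is 560 ± 62.2 (SD, n = 2). The signal is the deposited value of the region, read here as the peak caller's enrichment, in a list of its own for each replicate. The replicates lay close together, and the pooled reads gave 1116. The pooled signal was near the sum of the replicates, which was 1120 at meg-3 and 797 at meg-4. Pooled and replicate signals are therefore not on the same scale, and a higher pooled value does not mean stronger enrichment. The summit, the position of highest enrichment, lay 174 bp upstream of the start in replicate 1, 168 bp in replicate 2 and 169 bp in the pooled list. The gap of 6 bp between the replicates' summits compares with a median of 34 bp (quartiles 13.25 and 69) over the 386 thresholded X peaks that overlapped candidates of both replicates.

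The meg-4 peak (288 bp wide) had a signal of 424 in replicate 1 and 373 in replicate 2, which is 398 ± 36.1 (SD, n = 2), and 780 in the pooled list. The meg-4 signal was below that of meg-3 in both replicates. Its summit lay 198 bp upstream in replicate 1, 172 bp in replicate 2 and 188 bp in the pooled list. Its replicate summits were 26 bp apart, under the same median of 34 bp. The ratio of replicate 1 to replicate 2 was 1.17 at meg-3 and 1.14 at meg-4, within the quartiles of 0.746 and 1.46 over those X peaks.

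The other regions near both genes had far lower signals than these peaks. The pooled candidate list, which also holds background regions, had 10 regions within 5 kb of meg-3 and 5 within 5 kb of meg-4. At meg-3 the other 9 had signals of 16 to 56.6, and the top peak was 19.7 times the next. The next, at 56.6, lay inside the gene, 1955 bp past the start, and fell below 65.0, the lowest signal in the thresholded list. It ranked 511th of 5138 pooled candidates on X, with a deposited −log10 q-value of 2.43, the ceiling of that list. Regions overlapping it had signals of 24.2 in replicate 1 and 16.1 in replicate 2. At meg-4 the other 4 had signals of 26.0 to 32.5, and the top peak was 24.0 times the next, which ranked 1594th on X. Replicate 1 gave 9 regions near meg-3 and 5 near meg-4, and replicate 2 gave 10 and 5. Candidates stood at 7.61 per 10 kb around meg-3 and 3.71 around meg-4, against 2.9 over the X chromosome. Both densities count the peak for which the gene was chosen. Without that peak, 9 candidates remained in 13139 bp around meg-3 and 4 in 13466 bp around meg-4. The meg-4 density is thus raised above that of X mainly by its chosen peak.

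**Figure D1:**
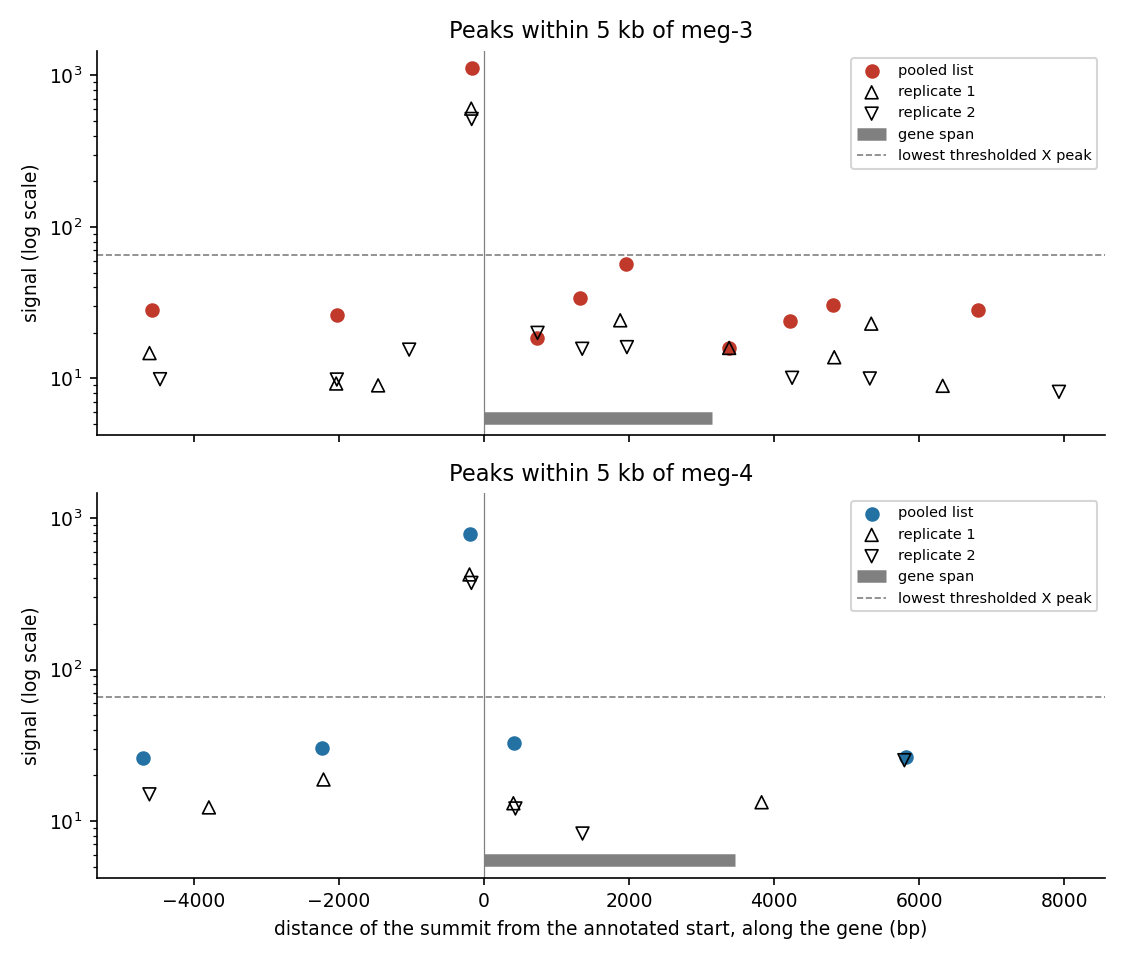
Signal (log axis) of every region within 5 kb of meg-3 (top) and meg-4 (bottom) against the distance of its summit from the annotated start in bp, negative upstream; filled circles are the pooled list and open triangles the 2 replicates. In each panel 1 peak stands just upstream of the start, at a pooled signal of 1116 or 780. Its triangles stand at 604 and 516 for meg-3 and at 424 and 373 for meg-4. All other regions lie at or below 56.6, under the line at the lowest thresholded X peak. That line is on the pooled scale and is no cutoff for the replicates.

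The neighbouring genes lay farther from the summits than meg-3 and meg-4 did. Upstream of meg-3 the next start was that of Y40A1A.2, a protein-coding gene transcribed the other way, 958 bp from the summit. The remaining genes within 5 kb of meg-3 were linc-6, F52D2.14, Y40A1A.5 and a pseudogene (WBGene00018690), whose starts were 3673 to 7876 bp from the summit. At meg-4 the next start was that of the noncoding RNA gene C36C9.10, 1014 bp away, with the summit past its end. The nearest coding starts after that of meg-4 were those of C36C9.11, 4613 bp away, and fbxa-170, an F-box gene, 4645 bp away. C36C9.12, C36C9.6, the 2 genes labelled C36C9.7 and a pseudogene (WBGene00023251) lay beyond the far end of meg-4, with starts 7330 to 8384 bp from the summit. The nearest tRNA, snoRNA or snRNA gene was 56709 bp from the meg-3 summit and 15908 bp from the meg-4 summit. Of the 405 thresholded X peaks, 138 (34.1%) lay within 100 bp of such a gene, but 0 of the 17 of highest signal did. Lying away from these genes thus does not set meg-3 and meg-4 apart from X peaks of like rank.

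The meg-3 peak ranked 2nd by signal among the 405 thresholded X peaks, 2nd on X in replicate 1 and 5th in replicate 2. The meg-4 peak ranked 17th, and 15th and 16th in replicates 1 and 2. Among all 1965 nuclear peaks they ranked 3rd and 21st. The rank neighbours of meg-3 were the peak 638 bp upstream of ins-39, an insulin-like peptide gene, with 1119, the peak at chrX:11093901-11094442 with 1112, the peak 995 bp upstream of fbxb-58, an F-box gene, with 1051, and the peak at chrX:9465592-9466113 with 1046. With meg-3 2nd in replicate 1 and 5th in replicate 2, its place among these leading peaks is not resolved. Above meg-4 stood the peaks at chrX:5429348-5429711 (863), chrX:8036178-8036675 (840) and chrX:1909410-1909718 (812), and below it those at chrX:12362906-12363345 (635), chrX:16056252-16056874 (628) and chrX:2364822-2365069 (532). Pooled signals come with no spread of their own, so the order of neighbours in this list has no error estimate. None of these 6 had a coding start within 1000 bp.

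Both peaks lay closer to the start of a protein-coding gene than the other leading X peaks. Of the 17 X peaks down to the rank of meg-4, 2 lay within 300 bp of a coding start, and these were the peaks of meg-3 and meg-4. Of all 405 thresholded X peaks, 74 (18.3%) lay that close, and meg-3 and meg-4 ranked 1st and 2nd among them. Within 1000 bp of a coding start there were 166 X peaks, and the same pair ranked 2nd and 5th. Their peaks were also narrow for their rank: the median width of the 17 was 426 bp, 3 were narrower than that of meg-3 and 0 were narrower than that of meg-4. Over all 405 the median width was 280 bp.

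The MEX motif marks sites on X where the dosage compensation complex is recruited. Its core was searched as exact matches to GCGCAGGG on both strands in the 101 bp around each summit, with no mismatch or inserted base allowed. Neither meg-3 nor meg-4 held it, whereas 8 of the 17 leading X peaks (47.1%) did, as did 16 of all 405 (3.95%) and 0.035% of equally long windows at the promoters of coding genes. The shorter word CGCAGG, which lies inside it, and the homeodomain words TAATTA and TAATC were also not found at either summit, nor in a wider window of 201 bp. In the 101 bp windows of the X peaks, CGCAGG was present in 10.6%, TAATTA in 1.23% and TAATC in 12.1%. At the promoters TAATTA was present in 5.61% and TAATC in 17.3%. Most X peaks thus lacked each of these words too. Among the 17 leading X peaks, however, CGCAGG was present in 10 (58.8%), TAATTA in 0 and TAATC in 3 (17.6%). GAGAGA was found at both, on the strand opposite to the gene, its first match starting 27 bp past the meg-3 summit and 29 bp past the meg-4 summit. It was present in 22% of the X windows, 21.1% of all nuclear peak windows and 8.18% of the promoter windows, so it is a common word. Pyrimidines made up 72.3% of the gene strand at the meg-3 summit and 76.2% at that of meg-4, against a median of 56.4% on the richer strand over X peaks. GC content was 56.4% and 50.5%, against a median of 47.5%.

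**Figure D2:**
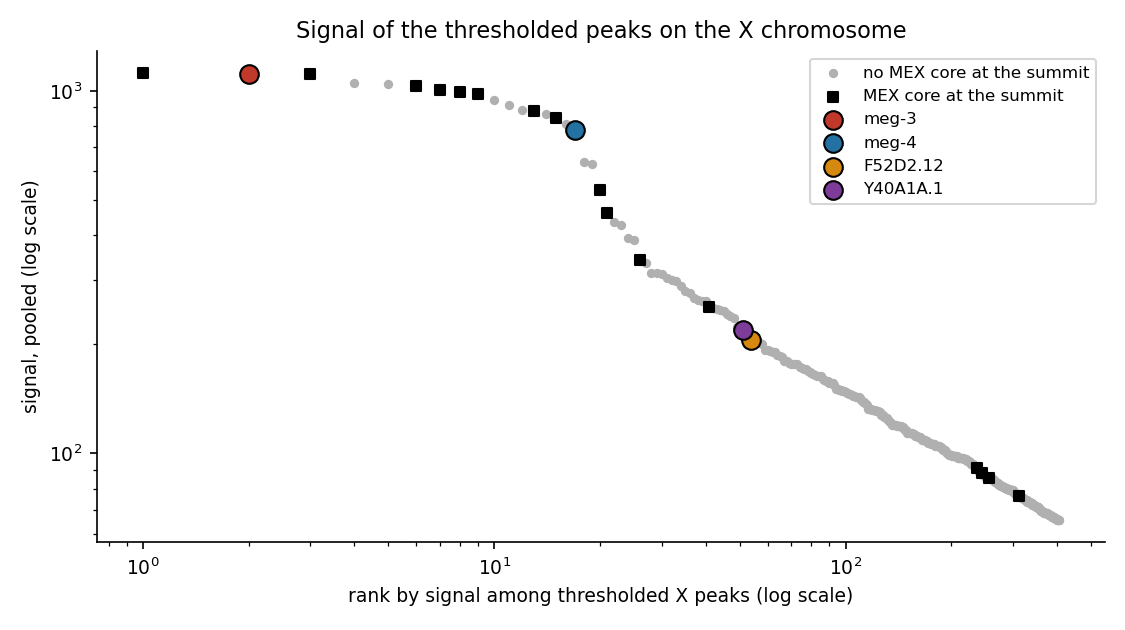
Pooled signal of the 405 thresholded X peaks against their rank (both axes log), with black squares for summits that hold the MEX core and coloured circles for the peaks of meg-3, meg-4 and the windows upstream of F52D2.12 and Y40A1A.1. The meg-3 peak (1116, rank 2) and the meg-4 peak (780, rank 17) stand among squares but hold no core, and the 2 other circles stand at 206 and 219.

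The related sequence of meg-3 and meg-4 did not end at the coding region. A local alignment of the 600 bp upstream gave 1 block, 387 bp upstream of meg-3 and 411 bp upstream of meg-4 down to both starts, with 317 identical of 370 aligned pairs (85.7%). The block also held 58 gap columns, and 74.1% of its 428 columns were identical. For the coding sequences, aligned over their whole length, 80.6% of 2620 columns were. No meg-3 base beyond 400 bp was aligned, and a search over 3000 bp gave the same block. In steps of 50 bp out to 400 bp, 66.0% to 86.0% of the meg-3 bases were identical in meg-4. Both summits fell inside the block: the meg-3 summit aligned with the base 178 bp upstream of meg-4, which is 10 bp from the meg-4 summit. The same gap was 16 bp in replicate 1 and 5 bp in replicate 2, which compares with 26 bp between the replicate summits of meg-4 and 6 bp between those of meg-3.

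**Figure D3:**
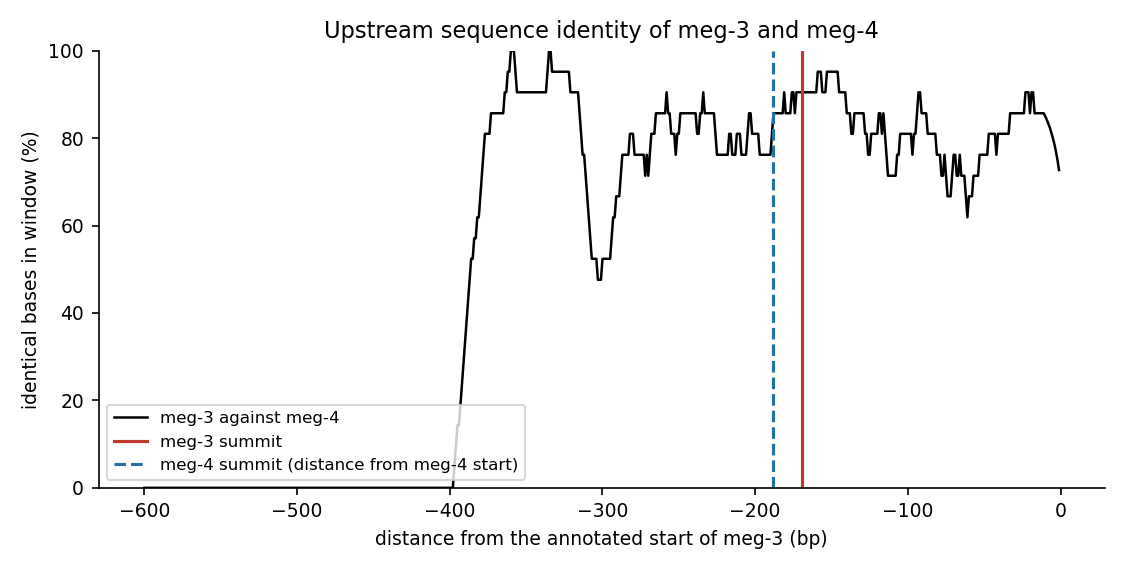
Percentage of bases identical between meg-3 and meg-4 in a sliding window (y axis) against the distance in bp from the start of meg-3 (x axis), with lines at the summits, 169 bp upstream of meg-3 and 188 bp upstream of meg-4. Identity is 47.6% or more from the start out to 387 bp, lowest near 300 bp and at the far end, is 0 beyond 400 bp, and both summits lie within the block. The meg-4 line is drawn at its distance from the meg-4 start, so the lines do not show the aligned gap of 10 bp.

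The peaks next to meg-3 on either side shared this sequence. Each member's 301 bp summit window was aligned with those of the other 1964 nuclear peaks on both strands. The best match of meg-3 was the peak at chrX:1977828-1977983, with a score of 310, followed by meg-4 with 225 and the peak at chrX:2000568-2000724 with 78. The best match of meg-4 was meg-3 with 225, followed by the same 2 peaks with 224 and 69. All further windows scored at most 43 against meg-3 and at most 59 against meg-4, with medians of 22 and 21. These 2 further peaks were picked out after the scores were seen, and they are the nearest thresholded peaks to meg-3, 8.6 kb and 11 kb from the gene. For meg-4 the nearest were 55.8 kb and 109.8 kb away.

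**Figure D4:**
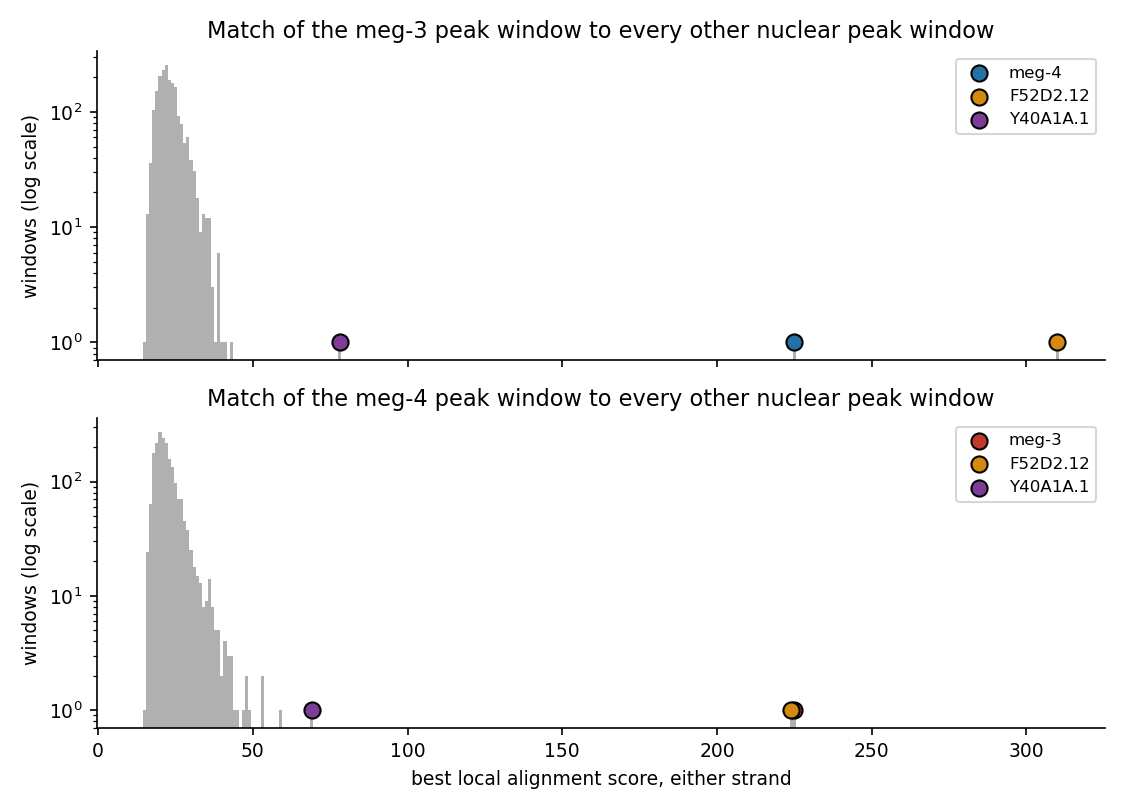
Number of nuclear peak windows (log axis) at each best local alignment score against the 301 bp summit window of meg-3 (top) and meg-4 (bottom), with coloured circles for the related windows. Most windows lie near 22 and 21, and only the circles exceed 60: for meg-3 they stand at 310, 225 and 78, and for meg-4 at 225, 224 and 69.

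The first of these peaks lies upstream of F52D2.12 (WBGene00219451), a protein-coding gene on the plus strand at chrX:1978014-1980942. Its coding sequence aligned with that of meg-3 over 728 of 1935 bases (37.6%), with 80.4% identity. The summit lay 106 bp before the annotated start and 167 bp before the start codon, against 171 bp before the start codon at meg-3 and 190 bp at meg-4. Its window was identical to that of meg-3 at 88.0% of 259 aligned pairs and to that of meg-4 at 86.8% of 228, and the aligned summits were 4 bp and 15 bp apart. The signal was 72.4 in replicate 1, 126 in replicate 2 and 206 in the pooled list (X rank 54), below both members in every list.

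The second lies 375 bp upstream of the pseudogene Y40A1A.1 (WBGene00021483), at chrX:2001030-2002631 on the plus strand. The best alignment of that pseudogene with the span of either member covered 36 or fewer pairs of bases. Its window was identical to that of meg-3 at 77.7% of 139 aligned pairs and to that of meg-4 at 83.1% of 118, and the aligned summits were 4 bp and 15 bp apart here too. The signal was 78.7 in replicate 1, 140 in replicate 2 and 219 in the pooled list (X rank 51). At both related peaks replicate 2 was the higher, whereas at meg-3 and meg-4 replicate 1 was. The X ranks in replicates 1 and 2 were 114 and 45 upstream of F52D2.12, and 96 and 37 upstream of Y40A1A.1. These replicate ranks lay farther apart than those of either member.

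The bases from 100 bp before to 50 bp after the 4 summits are shown to compare these windows, 151 bases each, 5′ to 3′. Capitals mark words of 8 or more bases that all 4 windows share: TGTGTTGTTTT, CCACACAC, TCTTTCTC and CTCTCTCA. The windows are chrX:1989726-1989876 on the minus strand for meg-3 and, on the plus strand, chrX:1682666-1682816 for meg-4, chrX:1977808-1977958 for F52D2.12 and chrX:2000555-2000705 for Y40A1A.1.
meg-3: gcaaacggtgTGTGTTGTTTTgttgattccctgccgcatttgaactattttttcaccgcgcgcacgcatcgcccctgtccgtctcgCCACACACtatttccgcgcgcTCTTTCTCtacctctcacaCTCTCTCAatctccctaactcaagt
meg-4: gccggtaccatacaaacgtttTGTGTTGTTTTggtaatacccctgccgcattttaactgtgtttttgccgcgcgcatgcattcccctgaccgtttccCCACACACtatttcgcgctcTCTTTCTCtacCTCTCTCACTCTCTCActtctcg
F52D2.12: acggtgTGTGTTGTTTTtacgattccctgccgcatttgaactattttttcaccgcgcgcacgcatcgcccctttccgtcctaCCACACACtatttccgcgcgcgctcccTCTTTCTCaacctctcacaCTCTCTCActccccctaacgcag
Y40A1A.1: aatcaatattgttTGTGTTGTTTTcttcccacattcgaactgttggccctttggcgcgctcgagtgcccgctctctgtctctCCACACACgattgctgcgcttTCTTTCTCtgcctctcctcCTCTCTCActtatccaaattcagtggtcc
The words stood in the same order in all 4. TGTGTTGTTTT began 90 bases before the meg-3 summit, 79 before that of meg-4, 94 before that of F52D2.12 and 87 before that of Y40A1A.1. CCACACAC began 14, 3, 18 and 18 bases before them in the same order. On either strand, TGTGTTGTTTT was present in 1.23% of the 301 bp X peak windows and 0.15% of equally long windows at coding promoters, centred 169 bp upstream of the start, CCACACAC in 4.44% and 0.861%, TCTTTCTC in 9.88% and 3.76%, and CTCTCTCA in 6.67% and 2.24%. All 4 words together were found in 4 of the 1965 peak windows, those shown, and in 3 of 19973 promoter windows, those of meg-3, meg-4 and F52D2.12. The words were taken from these windows, so the counts describe them and test nothing. GAGAGA, which overlaps CTCTCTCA when read on the other strand, was at all 4 summits, and the MEX core at none of them.

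A search of the whole genome for the upstream block found further matches on X alone. Matches that covered the summit of meg-3 were at meg-4 and F52D2.12, and those that covered the summit of meg-4 were at meg-3, F52D2.12 and Y40A1A.1, and each had a thresholded summit inside it. The remaining matches did not reach the summits, and a stretch of 53 bp of them lay beside F52D2.12. The bases 411 to 281 bp upstream of meg-4 matched chrX:806052-806181 with 85.6% identity, 505 bp from a summit with a signal of 880, the X peak of rank 13. The bases 70 to 5 bp upstream of meg-3 matched chrX:15373416-15373484 with 79.7% identity, 7968 bp from the nearest summit. Reads from such copies can align to more than 1 place, and how the authors treated them is not given in the sources used here. Of the sequences of 36 bases in each peak, 94.2% were found once in the genome at meg-3 and 86.0% at F52D2.12, as were all of those at meg-4 and Y40A1A.1. Soft-masked bases, which the assembly marks as repeats, made up 26.3% at meg-3 and 14.6% at meg-4. They made up 12.8% at F52D2.12 and 12.1% at Y40A1A.1. The part of shared reads in these signals was not tested.

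Among the listed germ granule genes meg-3 and meg-4 had the highest signals. A promoter peak, whose summit had to lie at most 1000 bp before or 200 bp past a start, was found at 5 of 40 listed genes (12.5%), against 6.72% of all nuclear coding genes and 6.04% of those on X. Besides the 2 members, which were chosen for their peaks, these were 3 of 38 (7.89%), near the share of all genes. They were cgh-1, a DEAD-box RNA helicase gene, with a signal of 126, spn-4, an RNA-binding regulator of maternal mRNAs, with 103, and ekl-1, a factor of the CSR-1 small RNA pathway, with 66.6. All were far below the meg-4 signal of 780. The 10 P granule protein genes had 0 promoter peaks and 2 promoter candidates (20%), against 39.2% of all coding genes with a candidate. The 10 small RNA factors had 1 peak and 7 candidates, and the 16 germ plasm RNA regulators had 2 peaks and 11 candidates (68.8%). The count for the list was 8 of 40 with the top regions of replicate 2 alone, without replicate 1, when 6.02% of all coding genes had a promoter peak. These 8 include meg-3 and meg-4.

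**Figure D5:**
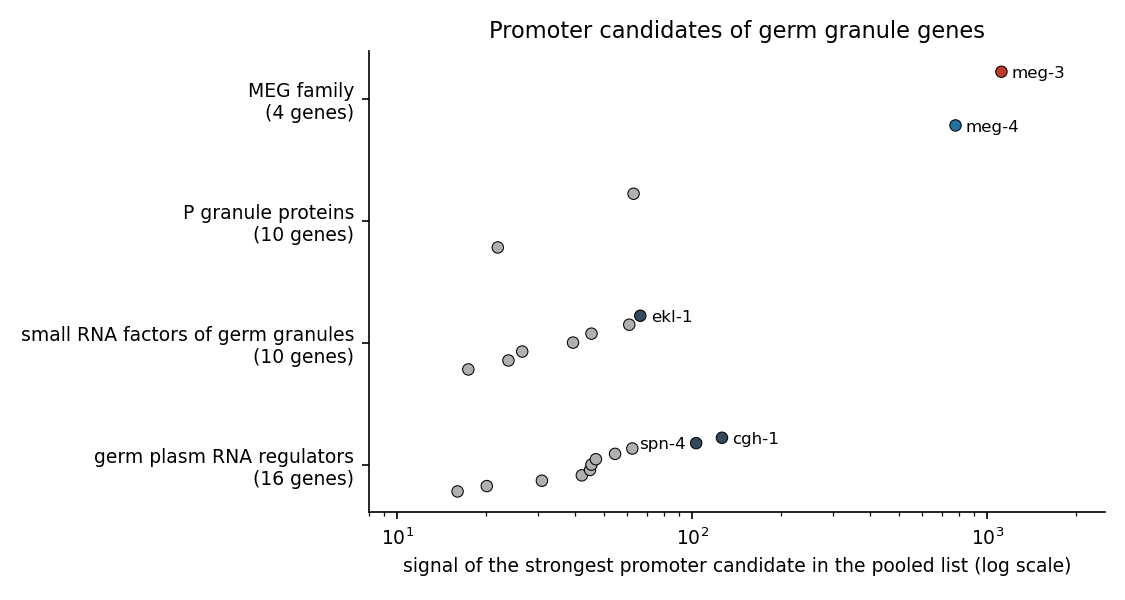
Signal (log axis) of the strongest pooled promoter candidate of each germ granule gene that has one, by list; named points have a promoter peak in the thresholded list and grey points do not. The meg-3 (1116) and meg-4 (780) points stand apart, and the next are cgh-1 (126) and spn-4 (103).

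The other MEG genes, meg-1 (WBGene00010492) and meg-2 (WBGene00010493), lie next to each other elsewhere on X and act with meg-3 and meg-4 in the embryo. Neither had a thresholded peak within 5 kb, and the nearest was 9.5 kb from meg-1 and 5.1 kb from meg-2, with a signal of 76.0. Thresholded peaks stood at 0.229 per 10 kb over X, so having none that near is no contrast by itself. The share of all genes with a peak that near is not given here. The strongest candidate within 5 kb had a signal of 28.8 at meg-1 and 39.3 at meg-2. These lay beyond the ends of the genes, 6625 bp and 5460 bp past the starts. Their 600 bp upstream aligned to those of meg-3 and meg-4 with scores of 25 to 36, against 302 between meg-3 and meg-4.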

How the data were processed

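Both biological replicates were profiled by ChIP-seq with an anti-GFP antibody. Per the file headers and the labels, the authors deposited, for the ce11 assembly, a pooled list thresholded on the irreproducible discovery rate (1980 regions) and candidate lists of 30000 regions for the pooled reads and for each replicate. The sources used here name no aligner, peak caller, version or threshold. Column 7 is the deposited signal, read as the peak caller's enrichment. Column 9 is a deposited −log10 q-value with a ceiling, 2.43 in the pooled list, at which both members stand, so it was not used for ranking. Column 10 is the summit. Lists for ce10 were not used, since the reference is ce11.

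Genes came from Ensembl release 115 and bases from the RefSeq assembly WBcel235. A region was near a gene when its summit lay within 5 kb of the gene's span. Ranks are by signal. Alignments used match 2, mismatch −3, gap opening −5 and extension −2 (Biopython 1.88), and the genome was searched with BLAST+ 2.17.0 (word size 11, E-value limit 1e-05). Windows scoring 60 or more were called related, a limit set after the scores were seen. The members and gene lists were chosen with earlier results of these data known. Genes named are the members, genes within 5 kb of them, the nearest starts, germ granule genes with a promoter peak, and genes within 1000 bp of the 3 X peaks ranked next above and below each member. The family members meg-1 and meg-2 were added outside this rule, and F52D2.12 and Y40A1A.1 after their values were seen. Alternatives were other distances, the peaks above the list's median signal, single replicates, other starts and another alignment scoring. Scripts were tested on simulated data. No test compares groups, since there is 1.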

Additional observations from a re-analysis of the deposited data

How the results depend on the processing

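Each member kept 1 thresholded peak within 2 kb and among the peaks above the list's median signal. Within 10 kb meg-3 had 2, because the peak upstream of F52D2.12 enters. Without either replicate in turn, both genes kept 1 peak. The X rank then ran from 2 to 5 at meg-3 and from 15 to 16 at meg-4, and the signed summit distance from -174 to -168 bp at meg-3 and from -198 to -172 bp at meg-4. RefSeq starts, added after seeing the data, gave the same distances. The upstream identity over aligned pairs was 81.4% with the other scoring, also added after seeing the data. The germ granule count was 4 of 40 with 500 bp upstream and 100 bp downstream (5.11% of all coding genes), 4 among the peaks above the median signal (3.8%), 7 with 2000 bp and 500 bp (9.14%), and 6 to 8 without a replicate (6.29% and 6.02%). Each of these counts includes meg-3 and meg-4, which were chosen for their peaks, so the counts are raised by that choice. Besides them, the genes were ekl-1 and spn-4 with 500 bp and 100 bp, and cgh-1 and spn-4 above the median signal. The cause of the shifts between settings was not tested. No paired analysis was possible because there is only 1 group. With 2 replicates and no read depths, the SDs rest on 2 values each, and no interval could be given. Beyond the share of soft-masked bases, repeat-derived signal was not analysed here, nor was expression of the tagged protein by cell type.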
